A study of Sus scrofa with 22 samples.

Results

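GPX2, SELENOP, FTH1 and FTL encode a glutathione peroxidase of the gut lining, the selenium-carrying selenoprotein P, and the heavy and light chains of ferritin. They were taken as every probe of a pig array whose accession maps to 1 of these 4 symbols, which gave 22 of 43603 probes: 1 for GPX2, 10 for SELENOP, 10 for FTH1 and 1 for FTL. All 4 genes were among the 24761 genes that entered the fit, of which 2653 carry a gene symbol. They were chosen by their log2 ratios over the 4 groups, with earlier results of these data in view, so their values are given as a description and without a test.

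Total RNA of small intestine from 22 specific-pathogen-free crossbred piglets (Large White × Danish Landrace, given as 3 days old) was measured, 1 array per piglet. In one experiment 6 piglets were treated with doxorubicin (DOX), an inhibitor of topoisomerase II, and 6 piglets were its untreated controls. In the other, 5 piglets were treated with busulfan plus cyclophosphamide (BUCY), drugs that alkylate DNA, and 5 piglets were its untreated controls. All piglets had suckled the sow before they were housed singly and fitted with a gastric tube and a jugular catheter, and no source used here gives the dose, the time of sampling or the segment of intestine.

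Selenoproteins carry selenium as selenocysteine, an amino acid that is built in at a UGA codon read through a hairpin in the messenger RNA. Glutathione peroxidases use it to reduce peroxides with glutathione. GPX2 is the form typical of intestinal epithelium and lies mostly in crypts, whereas SELENOP is secreted, chiefly by the liver, and delivers selenium to other tissues. Ferritin is a hollow protein shell that stores iron. FTH1 oxidises iron as it enters the shell and FTL helps to form the mineral core, and iron regulatory proteins hold back translation of both messages when iron is scarce.

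Each value is a log2 ratio of a piglet's RNA, labelled with Cy5, to a pool of all samples labelled with Cy3 on the same array, so a value of 0 means the level of the pool for that probe. Ratios of different genes do not compare their amounts. The dyes are those stated in the labels, and the lowest correlation between any pair of arrays over all probes was -0.38. Between 59.7% and 72.5% of probes per array stood clearly above background, all 22 probes of the 4 genes did so on all 22 arrays, and precision is limited by the number of arrays. FABP2, an enterocyte fatty acid binding protein used to check the tissue, was also above background on 22 arrays. BUCY treated piglets 2 and 3 stood apart from all other piglets on the second principal component, which held 25.5% of the variance, with scores of 71.4 and 86.7. Median Cy5 signals were 135 for piglet 2 and 88 for piglet 3, where arrays ran from 88 to 210. The array of piglet 3 was thus the dimmest. It also held the smallest share of probes clearly above background, 59.7%, against 66.3% for piglet 2. Values are given below with and without piglets 2 and 3.

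GPX2 was above the pool in 4 of the 5 BUCY treated piglets and far below it in the BUCY untreated piglets, and it was level between DOX treated and DOX untreated piglets. The log2 ratios were 0.30, 2.32, 1.74, -0.66 and 0.35 in BUCY treated piglets 1 to 5. They were -1.08, -1.24, -1.55, -1.42 and -1.07 in BUCY untreated piglets 1 to 5. The highest values were those of BUCY treated piglets 2 and 3, all BUCY treated piglets lay above all BUCY untreated ones, and the untreated group was tight. The means were 0.81 ± 1.20 in BUCY treated and -1.27 ± 0.21 in BUCY untreated piglets (SD, n = 5 each), a 4.24-fold higher level after BUCY with a difference of 2.09 (SE 0.55). With piglets 2 and 3 left out the difference was 1.27 (SE 0.34) and the groups still did not overlap. With the scanner software's own processed ratio in place of the loess-normalised one, it was 3.11. Over all genes tested, BUCY treated piglets lay wholly above BUCY untreated ones for 3.22%.

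In the DOX experiment the lowest, median and highest GPX2 log2 ratios were -0.40, 0.10 and 0.83 in DOX treated piglets, against -0.45, 0.34 and 0.46 in DOX untreated piglets. The groups overlapped from -0.40 to 0.46, with the highest DOX treated value above this stretch. DOX treated piglets lay wholly above DOX untreated ones for 1.22% of all genes tested and wholly below for 1.39%. The means were 0.12 ± 0.48 and 0.13 ± 0.40 (SD, n = 6 each), a difference of -0.01 (SE 0.25). BUCY untreated piglets were 2.64-fold lower than DOX untreated piglets (difference -1.40, SE 0.19) without overlap, as were 9.02% of all genes tested. In the order of the group means, BUCY treated came first, followed by DOX untreated and DOX treated, which overlapped with it and with each other, and BUCY untreated lay apart at the bottom.

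SELENOP showed the opposite arrangement and the widest range of the 4 genes. For its brightest probe (A_72_P604583) the log2 ratios were 0.78, -3.07, -3.53, 0.01 and -1.38 in BUCY treated piglets 1 to 5. In BUCY untreated piglets 1 to 5 they were 1.11, 1.29, 1.78, 1.23 and 1.19. All BUCY treated piglets lay below all BUCY untreated ones, piglets 2 and 3 by the largest margin and piglet 1 by the smallest. The means were -1.44 ± 1.87 in BUCY treated and 1.32 ± 0.27 in BUCY untreated piglets (SD, n = 5 each), a 6.77-fold lower level after BUCY (difference -2.76, SE 0.85). Without piglets 2 and 3 the difference was -1.52 (SE 0.64), again with no overlap. Over all genes tested, 3.34% lay wholly lower in BUCY treated piglets.

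After DOX the SELENOP ratios were slightly higher. The lowest, median and highest values of the brightest probe were -1.52, -1.30 and -0.12 in DOX treated piglets, against -2.19, -1.54 and -1.18 in DOX untreated piglets. The groups overlapped, although 6 of 6 DOX treated piglets lay above the mean of the untreated ones. The means were -1.09 ± 0.54 and -1.64 ± 0.43 (SD, n = 6 each), a difference of 0.56 (SE 0.28). The direction of the drug difference was thus positive for DOX and negative for BUCY, and the BUCY difference minus the DOX difference was -3.31 (SE 0.89).

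In untreated piglets SELENOP levels were far apart between the experiments. BUCY untreated piglets were 7.80-fold above DOX untreated piglets (difference 2.96, SE 0.21), with no overlap, as for 8.92% of all genes tested. BUCY treated piglets were no longer separated from DOX treated piglets, with a difference of -0.35 (SE 0.87) and overlapping ranges. In the order of the group means BUCY untreated stood alone at the top, and DOX treated, BUCY treated and DOX untreated followed, each overlapping with the next. The BUCY difference and the difference between the untreated groups both use the BUCY untreated piglets. The experiment, its piglets and their handling cannot be told apart in the comparison of untreated groups, and nothing in the labels says which piglets shared a litter.

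**Figure D1:**
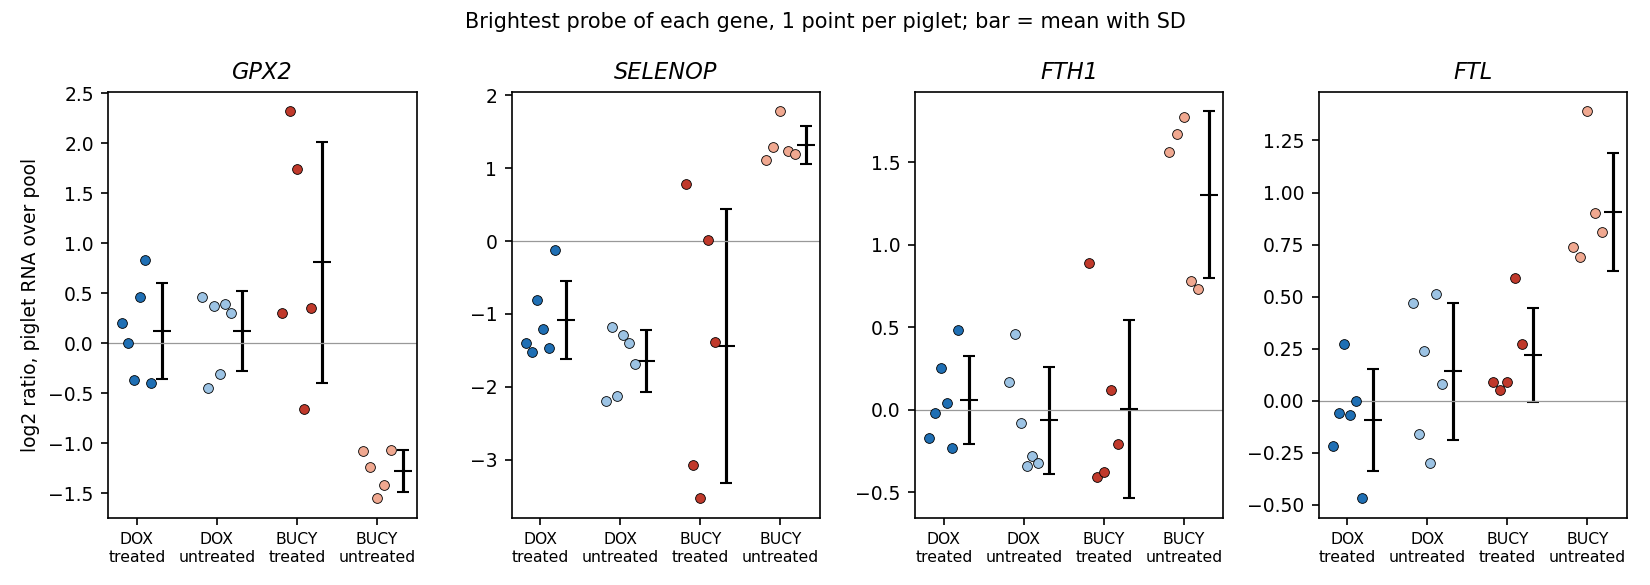
Log2 ratio of piglet RNA over the pool (vertical axes, each with its own scale) for the brightest probe of GPX2, SELENOP, FTH1 and FTL, 1 point per piglet, in DOX treated (n = 6), DOX untreated (n = 6), BUCY treated (n = 5) and BUCY untreated (n = 5) piglets; bars are the mean with SD. The BUCY untreated piglets lie below the other groups for GPX2 (mean -1.27) and above them for SELENOP (1.32), FTH1 (1.30) and FTL (0.91), with an overlap with BUCY treated piglets for FTH1 only.

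The 10 SELENOP probes behaved as one. Pairs of probes had correlations of 0.92 to 1 over the 22 arrays, and of 0.89 to 1 once each group's mean was subtracted. The difference between BUCY treated and BUCY untreated piglets ran over the probes between -2.76 and -1.86 with a median of -2.54, and the groups did not overlap for 9 of 10 probes. BUCY treated piglet 3 ranged over the 10 probes between -3.80 and -1.48, piglet 2 between -3.07 and -1.59, piglet 5 between -1.38 and -1.06, piglet 4 between -0.21 and 0.50 and piglet 1 between 0.55 and 0.78. The order of the piglets was therefore kept except between piglets 2 and 3, whose ranges overlapped. The smallest BUCY differences came from the dim probes ranked 7, 9 and 10 by brightness, at -2.02, -1.86 and -1.95. The DOX difference was above 0 for all 10 probes, between 0.34 and 0.61, and the untreated groups did not overlap for any probe, with differences of 2.65 to 2.96.

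FTH1 was lower in BUCY treated than in BUCY untreated piglets. For its brightest probe (A_72_P760130) the log2 ratios were 0.89, -0.41, -0.38, 0.12 and -0.21 in BUCY treated piglets 1 to 5. They were 1.56, 1.67, 1.77, 0.78 and 0.73 in BUCY untreated piglets 1 to 5. BUCY treated piglet 1 lay above BUCY untreated piglets 4 and 5, and these 3 values made the only overlap. The means were 0.00 ± 0.54 in BUCY treated and 1.30 ± 0.51 in BUCY untreated piglets (SD, n = 5 each), a 2.46-fold lower level after BUCY with a difference of -1.30 (SE 0.33). It was -1.04 (SE 0.40) without piglets 2 and 3, and -1.99 when arrays were centred on their median in place of loess. In the DOX experiment the lowest, median and highest values were -0.23, 0.01 and 0.48 in DOX treated piglets, against -0.34, -0.18 and 0.46 in DOX untreated piglets. These groups overlapped throughout, with a difference of 0.12 (SE 0.17).

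Over the 10 FTH1 probes the BUCY difference ran between -1.52 and -0.78 with a median of -1.35, and for 6 of 10 probes the groups did not overlap. Beside this, 3.34% of all genes tested, each by its brightest probe, lay wholly lower in BUCY treated piglets. The DOX difference was between 0.02 and 0.17, and no probe separated the DOX groups. BUCY untreated piglets were above DOX untreated piglets by 1.15 to 1.48 on every probe. There was no overlap on any of the 10, and 8.92% of all genes tested lay wholly higher in this comparison. FTH1 probes resembled each other less than those of SELENOP: correlations between pairs were 0.71 to 1, and 0.05 to 1 (median 0.63) after the group means were subtracted.

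The FTH1 probes differed in the gap between BUCY untreated piglets of the first and of the later scan days. For the probes ranked 1, 2, 3 and 5 by brightness, the 3 BUCY untreated piglets scanned on the first day lay 0.73 to 0.94 above the 2 scanned on the later days, and these 4 probes were the ones with an overlap. For the probes ranked 6 to 9 this gap was 0.10 to 0.20, it was 0.42 for the probe ranked 4, and -0.40 for the dimmest. The later piglets, BUCY untreated 4 and 5, also lay on other slides and were the BUCY untreated arrays with a suffix in their title. Scan day, slide, suffix and piglet therefore cannot be told apart in this gap. Within scan days, of 1 to 3 piglets per group, the BUCY difference of the brightest probe was -1.43 to -0.91. Within the 3 slides that held both groups, with 1 or 2 piglets per group, it was -0.94 to -0.88. Whether the probes read the same message, or copies of FTH1 elsewhere in the genome, could not be checked without probe sequences.

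**Figure D2:**
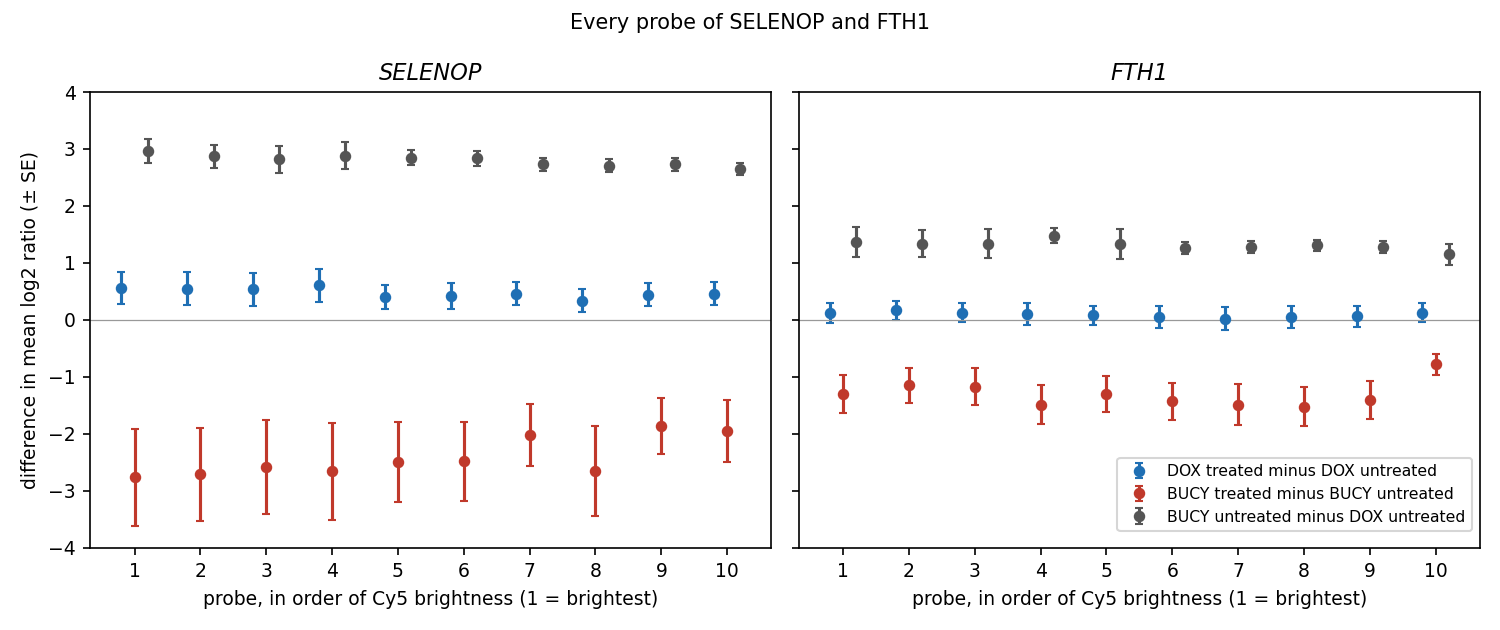
Difference in mean log2 ratio (vertical axis, ± SE) for each of the 10 SELENOP and 10 FTH1 probes, ordered along the horizontal axis by Cy5 brightness, for DOX treated minus DOX untreated, BUCY treated minus BUCY untreated, and BUCY untreated minus DOX untreated piglets. Every probe of both genes is below 0 for BUCY (-2.76 to -1.86 for SELENOP and -1.52 to -0.78 for FTH1) and above 0 between the untreated groups.

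FTL, measured by 1 probe, differed less between the groups. Its log2 ratios were 0.09, 0.05, 0.09, 0.59 and 0.27 in BUCY treated piglets 1 to 5. They were 0.74, 0.69, 1.39, 0.90 and 0.81 in BUCY untreated piglets 1 to 5. The BUCY treated piglets were all lower, as for 3.34% of all genes tested. In these loess-normalised ratios piglets 2 and 3 did not stand out among them, unlike for SELENOP and GPX2. With median centring they were the lowest, at -0.52 and -1.38, against 0.72, 0.52 and 0.55 in piglets 1, 4 and 5. The means were 0.22 ± 0.23 in BUCY treated and 0.91 ± 0.28 in BUCY untreated piglets (SD, n = 5 each), a 1.61-fold lower level after BUCY (difference -0.69, SE 0.16). The difference was -0.59 (SE 0.19) without piglets 2 and 3, and -1.39 with median centring.

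In the DOX experiment FTL had lowest, median and highest values of -0.47, -0.06 and 0.27 in DOX treated piglets, against -0.30, 0.16 and 0.51 in DOX untreated piglets. The groups overlapped, with a difference of -0.23 (SE 0.17). BUCY untreated piglets were 1.70-fold above DOX untreated piglets (difference 0.77, SE 0.18) without overlap, as for 8.92% of all genes tested. Between BUCY treated and DOX treated piglets, all 4 genes overlapped, with differences of 0.69 for GPX2, -0.35 for SELENOP, -0.06 for FTH1 and 0.31 for FTL, where 1.52% of all genes tested lay wholly higher and 3.34% wholly lower in BUCY treated piglets.

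Slide and scan day did not turn the direction of any BUCY difference. Within the 3 scan days it was 1.42 to 2.60 for GPX2, -2.99 to -2.54 for SELENOP and -0.87 to -0.54 for FTL. Within the 3 slides that held both groups it was 1.42 to 1.97 for GPX2, -2.99 to -1.0 for SELENOP and -1.30 to -0.54 for FTL. These slides compared 1 treated with 1 untreated piglet, or 2 with 1, and the scan days 2 with 3, 2 with 1 and 1 with 1. The BUCY arrays of scan days 2 and 3 were those of slides 5 and 7, so slides and days are not separate checks. In the DOX experiment the within-slide differences were -0.37 to 0.61 for GPX2, -0.49 to 0.44 for FTH1 and -0.37 to 0.12 for FTL, which lie on both sides of 0, and 0.28 to 0.60 for SELENOP. Between the untreated groups the 2 slides and 2 scan days with both groups gave -1.53 to -1.20 for GPX2, 2.65 to 3.32 for SELENOP, 1.03 to 1.69 for FTH1 and 0.48 to 0.76 for FTL. In these comparisons too each slide or scan day held 1 to 3 piglets per group.

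Across piglets, GPX2 and SELENOP ran in opposite directions. Their correlation was -0.88 over the 22 arrays and -0.82 after group means were subtracted, and the second value was -0.54 over the 20 arrays without BUCY treated piglets 2 and 3. SELENOP and FTH1 ran together, with 0.87 over all arrays and 0.63 after group means were subtracted (0.58 over the 20 arrays). Each gene was taken here by its brightest probe. With the 10 FTH1 probes, the brightest SELENOP probe had 0.42 to 0.85 after group means were subtracted. In the loess-normalised ratios FTL followed neither gene within groups, at 0.08 with SELENOP and 0.04 with FTH1. These correlations were not computed with median centring. These are descriptions: the arrays share the pool and the group differences above, and the pairs were seen before they were measured here.

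Marker lists of cell types were measured beside these differences. The mean log2 ratio of 8 enterocyte markers, of 13 listed, was 0.90, -1.32, -2.34, 0.90 and 0.48 in BUCY treated piglets 1 to 5, against -0.23 to 0.57 in BUCY untreated piglets. It was lowest in piglets 2 and 3, which had the lowest SELENOP and the highest GPX2. In piglets 1, 4 and 5, whose SELENOP also lay below every untreated piglet, it was within or above the untreated range. In DOX treated piglets this mean lay between -0.72 and 0.44, against -0.63 to 0.87 in DOX untreated piglets. Of the 8 markers, 2 were called lower after BUCY and 0 higher by limma's adjusted p under 0.05, beside 9.05% of all genes called lower and 8.23% higher, and the other 6 did not pass. The count was 1 without BUCY untreated piglet 1, and 0 without BUCY treated piglet 2 or piglet 3, with slide as a block or with only the BUCY groups in the fit. Without both of these piglets 0 were called lower and 2 higher, and the median difference of the 8 markers was 0.72 in place of -0.35. What part these markers had in the SELENOP difference was not tested. In such bulk samples fewer cells of a type and less RNA per cell cannot be told apart.

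The mean of 7 crypt and cycling markers, of 12 listed, was -0.50 to 0.33 in BUCY treated piglets, against -1.26 to -0.75 in BUCY untreated piglets, with no overlap and in the direction of GPX2. The listed crypt markers LGR5 and OLFM4 had 0 probes with their symbol, so this mean does not include them. Of the markers tested, 5 of 7 were called higher after BUCY and 0 lower, beside 8.23% of all genes called higher and 9.05% lower. The 5 were 2 without BUCY treated piglets 2 and 3, and 3 with median centring or with only the BUCY groups in the fit. In DOX treated piglets the mean was -0.31 to 0.28, against 0.08 to 0.68 in DOX untreated piglets. The part of these markers in the GPX2 difference was not tested. The mean of 3 liver markers of 6 listed, given because the liver is the main source of plasma SELENOP, was -0.55 to -0.07 in BUCY treated piglets, against -0.34 to 0.49 in BUCY untreated piglets, and 0 of the 3 were called by limma in the BUCY comparison, also at an unadjusted p under 0.05. The best of 19 probes for albumin, ALB, stood above background on 17 of 22 arrays.

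The mean of 6 T cell markers, of 6 listed, was -1.23, -1.35, -0.99, -1.14 and -0.98 in BUCY treated piglets 1 to 5, against -0.37 to 0.41 in BUCY untreated piglets. The groups did not overlap, and piglets 2 and 3 did not stand apart from the other treated piglets. All 6 were called lower after BUCY by limma, beside 9.05% of all genes, with a median difference of -1.16, and 6 were also called without piglets 2 and 3, with each array left out in turn and with median centring. In the DOX experiment the mean was -0.67 to 0.21 in DOX treated piglets, against 0.24 to 0.75 in DOX untreated piglets, again with no overlap. There 3 of 6 were called lower, beside 0.481% of all genes. With each array left out in turn the count was 2 to 5, and it was 5 without DOX treated piglet 4. The T cell markers were thus lower after both drugs. The part of these markers in the differences of the 4 genes was not tested.

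The mean of 3 smooth muscle markers of 5 listed was 0.54, 0.29, 1.65, 0.35 and 0.14 in BUCY treated piglets 1 to 5, against -0.40 to 0.35 in BUCY untreated piglets, an overlapping range with piglet 3 highest. Of the 3, 1 was called higher after BUCY and 0 lower, beside 8.23% and 9.05% of all genes. The count of 1 became 0 with median centring, slide as a block or only the BUCY groups in the fit. It was 0 without BUCY untreated piglet 1, 2 or 3 or BUCY treated piglet 2 or 3, and 2 without BUCY treated piglet 5. The mean of 7 macrophage markers of 9 listed was -0.97 to 0.32 in BUCY treated piglets, against -0.80 to -0.14 in BUCY untreated piglets. After BUCY 2 of the 7 were called higher and 1 lower, beside 8.23% and 9.05% of all genes. With each array left out in turn 2 were called higher and 0 to 2 lower. After DOX 2 of the 7 were called higher and 0 lower, beside 0.368% and 0.481% of all genes, also with each array left out in turn. Of the goblet cell and red cell lists, of 6 genes each, 2 and 1 were tested and 0 were called after either drug. The part of these lists was not tested either.

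**Figure D3:**
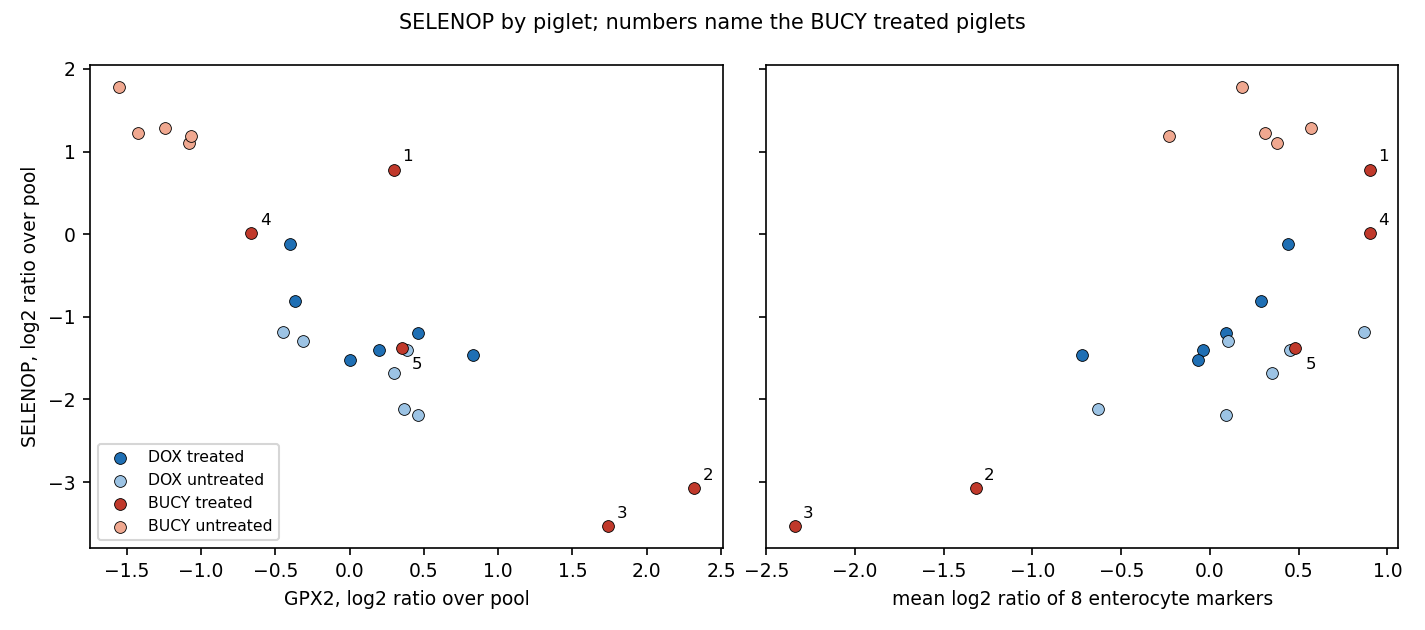
SELENOP log2 ratio over the pool (vertical axes) against the GPX2 log2 ratio (left) and against the mean log2 ratio of 8 enterocyte markers (right), 1 point per piglet, in DOX treated, DOX untreated, BUCY treated and BUCY untreated piglets, with BUCY treated piglets numbered. BUCY treated piglets 2 and 3 have the lowest SELENOP (-3.07 and -3.53), the highest GPX2 (2.32 and 1.74) and the lowest marker means (-1.32 and -2.34).

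The genes with a symbol whose pattern over the 22 arrays came nearest to that of each gene were taken by Pearson's r. For GPX2 they were MIF (r = 0.930), a cytokine with tautomerase activity, ERO1A (0.889), an oxidase that forms disulphide bonds in the endoplasmic reticulum, and GANAB (0.879), a glucosidase subunit of the same compartment. For SELENOP they were SLC7A7 (0.948), an exporter of basic amino acids, and DPYD (0.942), which breaks down pyrimidines. After group means were subtracted these 2 had r of 0.92 and 0.90 with SELENOP, against 0.83, 0.77 and 0.72 for the 3 genes nearest GPX2. All of these genes were picked for their high r on the same arrays, so the second values are no separate check. Values without BUCY treated piglets 2 and 3, which had the lowest SELENOP and the highest GPX2, were not computed for these genes.

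For FTH1 the nearest were TSPAN3 (0.936), a tetraspanin, FBXL4 (0.906), an F-box protein of mitochondria, and DECR1 (0.898), an enzyme of fatty acid oxidation. For FTL they were FRRS1 (0.867), a ferric reductase, ID4 (0.824), an inhibitor of helix-loop-helix transcription factors, and SLC25A3 (0.801), the mitochondrial phosphate carrier. After group means were subtracted r was 0.53 to 0.56 for the genes nearest FTL and 0.68 to 0.83 for those nearest FTH1. These genes too were picked for their high r on the same arrays, so the same limits hold.

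The other genes of selenoprotein and peroxide metabolism were followed in a list of 72, of which 37 were tested. After BUCY, limma called 9 higher and 3 lower at an adjusted p under 0.05, and 25 did not pass, beside 17.3% of all genes called (8.23% higher and 9.05% lower). The median BUCY difference of the list was 0.24, against 0.00 over all genes. Median centring shifted the median of all genes by -0.12 and changed the split of calls: 0 genes of the list were then called higher and 5 lower, its median was -0.22, and 16.7% of all calls were higher in place of 47.6%. The direction of the list in the BUCY comparison therefore rests on the scaling. Within slides and within scan days, of 1 to 3 piglets per group, the list's median BUCY difference was 0.05 to 0.43.

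Among the glutathione peroxidases other than GPX2, GPX4, which reduces lipid peroxides in membranes, had log2 ratios of 0.57, 0.16, -0.06, 0.43 and 0.63 in BUCY treated piglets 1 to 5, against -0.20, -0.23, -0.40, -0.19 and -0.06 in BUCY untreated piglets 1 to 5. The groups met only at the lowest treated and highest untreated value. GPX4 was 1.47-fold higher (difference 0.56, SE 0.12, limma adjusted p = 0.00332), and 0.02 with median centring (adjusted p = 0.977), within alternatives of 0.000592 to 0.977. GPX1, the cytosolic peroxidase, averaged 0.40 ± 0.09 in BUCY treated and 0.02 ± 0.09 in BUCY untreated piglets (SD, n = 5 each; difference 0.38, limma adjusted p = 0.0232). It turned to -0.22 with median centring, and its call was lost without BUCY untreated piglet 2 or 3 or BUCY treated piglet 2 or 3 (adjusted p of 0.0528 to 0.0593). The adjusted p was 0.00232 to 0.525 over all alternatives.

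Other selenoproteins called higher after BUCY changed by small amounts. TXNRD2, the mitochondrial thioredoxin reductase, averaged 0.40 ± 0.21 in BUCY treated and -0.02 ± 0.11 in BUCY untreated piglets (difference 0.42, limma adjusted p = 0.00549). SELENOF, a selenoprotein of the endoplasmic reticulum, averaged -0.28 ± 0.19 in BUCY treated and -0.70 ± 0.07 in BUCY untreated piglets (difference 0.42, limma adjusted p = 0.0146). MSRB1, which repairs oxidised methionine, averaged -0.08 ± 0.12 in BUCY treated and -0.47 ± 0.13 in BUCY untreated piglets (difference 0.39, limma adjusted p = 0.0168). For each of these 3 genes no BUCY treated value overlapped a BUCY untreated one, and 3.22% of all genes tested lay wholly higher after BUCY. Each of the 3 differences turned negative with median centring, at -0.06, -0.17 and -0.19. Without BUCY treated piglet 2, the adjusted p was 0.051 for SELENOF and 0.0541 for MSRB1. Over all alternatives it was 0.00222 to 0.808 for TXNRD2, 0.00732 to 0.706 for SELENOF and 0.00813 to 0.585 for MSRB1.

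Genes of the list that are not selenoproteins were also called. TXNIP, which binds and restrains thioredoxin, had log2 ratios of -1.07, 1.18, 0.74, 0.01 and 0.10 in BUCY treated piglets 1 to 5, against -1.05, -0.97, -1.21, -0.82 and -1.12 in BUCY untreated piglets 1 to 5. BUCY treated piglet 1 lay within the untreated range and the other 4 above it (difference 1.23, SE 0.28, limma adjusted p = 0.00599). Without piglets 2 and 3 the TXNIP difference was 0.71 (adjusted p = 0.108). CAT, the catalase that breaks down hydrogen peroxide, was 0.79, -1.0, -1.52, 0.61 and 0.13 in BUCY treated piglets 1 to 5, against 1.13, 0.99, 0.49, 0.87 and 1.18 in BUCY untreated piglets 1 to 5. It was lower by the mean (difference -1.13, SE 0.32, limma adjusted p = 0.019), with piglets 2 and 3 lowest, as for SELENOP. Without piglets 2 and 3 the CAT difference was -0.42 (adjusted p = 0.296), and without piglet 2 or piglet 3 alone the adjusted p was 0.0717 and 0.0609. It was 0.00294 to 0.296 over all alternatives. KEAP1, which marks the stress factor NRF2 for destruction, averaged 0.18 ± 0.17 in BUCY treated and -0.25 ± 0.23 in BUCY untreated piglets (difference 0.43, limma adjusted p = 0.0215, and -0.03 with median centring). Its call was lost without BUCY untreated piglet 2, 3 or 5 or BUCY treated piglet 2 or 3 (adjusted p of 0.0511 to 0.0659). The adjusted p was 0.00576 to 0.918 over all alternatives. For TXNIP these gave 0.000116 to 0.13.

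The other 4 called genes of the list are named here after their values were seen. GGT1, which starts the breakdown of glutathione outside the cell, had the widest difference of the 37 genes, at -1.38 (SE 0.46, limma adjusted p = 0.0418). NQO1, a quinone reductase whose gene NRF2 activates, had 1.03 (SE 0.32, limma adjusted p = 0.0313). GSTO1, a glutathione transferase, had 0.73 (SE 0.24, limma adjusted p = 0.0406). With median centring the calls of NQO1 (0.69, adjusted p = 0.117) and GSTO1 (0.11, adjusted p = 0.882) were lost. SEPHS2, a selenoprotein that makes the selenium donor for selenocysteine, had -0.56 (SE 0.18, limma adjusted p = 0.0403). Without BUCY treated piglets 2 and 3 the calls of GGT1 (-1.07), NQO1 (0.44) and SEPHS2 (-0.32) were lost, at adjusted p of 0.309, 0.351 and 0.421, and 5 to 8 of the 22 fits that each left out 1 array lost the call of each of the 4 (highest adjusted p of 0.0877 to 0.132).

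The count for the list depended on single piglets. It was 3 without BUCY treated piglet 2, 6 without BUCY untreated piglet 2 and 7 without BUCY untreated piglet 3, in place of 12. Without BUCY treated piglets 2 and 3 together, 4 genes were called, all higher: GPX4, GSTO1, MGST1 and MGST3, the last 2 also named after their values were seen. GPX4 and GSTO1 were also called with all piglets. When the fit held only the BUCY groups, GPX1 was the only gene called. After DOX, limma called 0 of the 37 genes, beside 0.848% of all genes, and 5 of the 37 had an unadjusted p under 0.05, as did 13.8% of all genes.

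**Figure D4:**
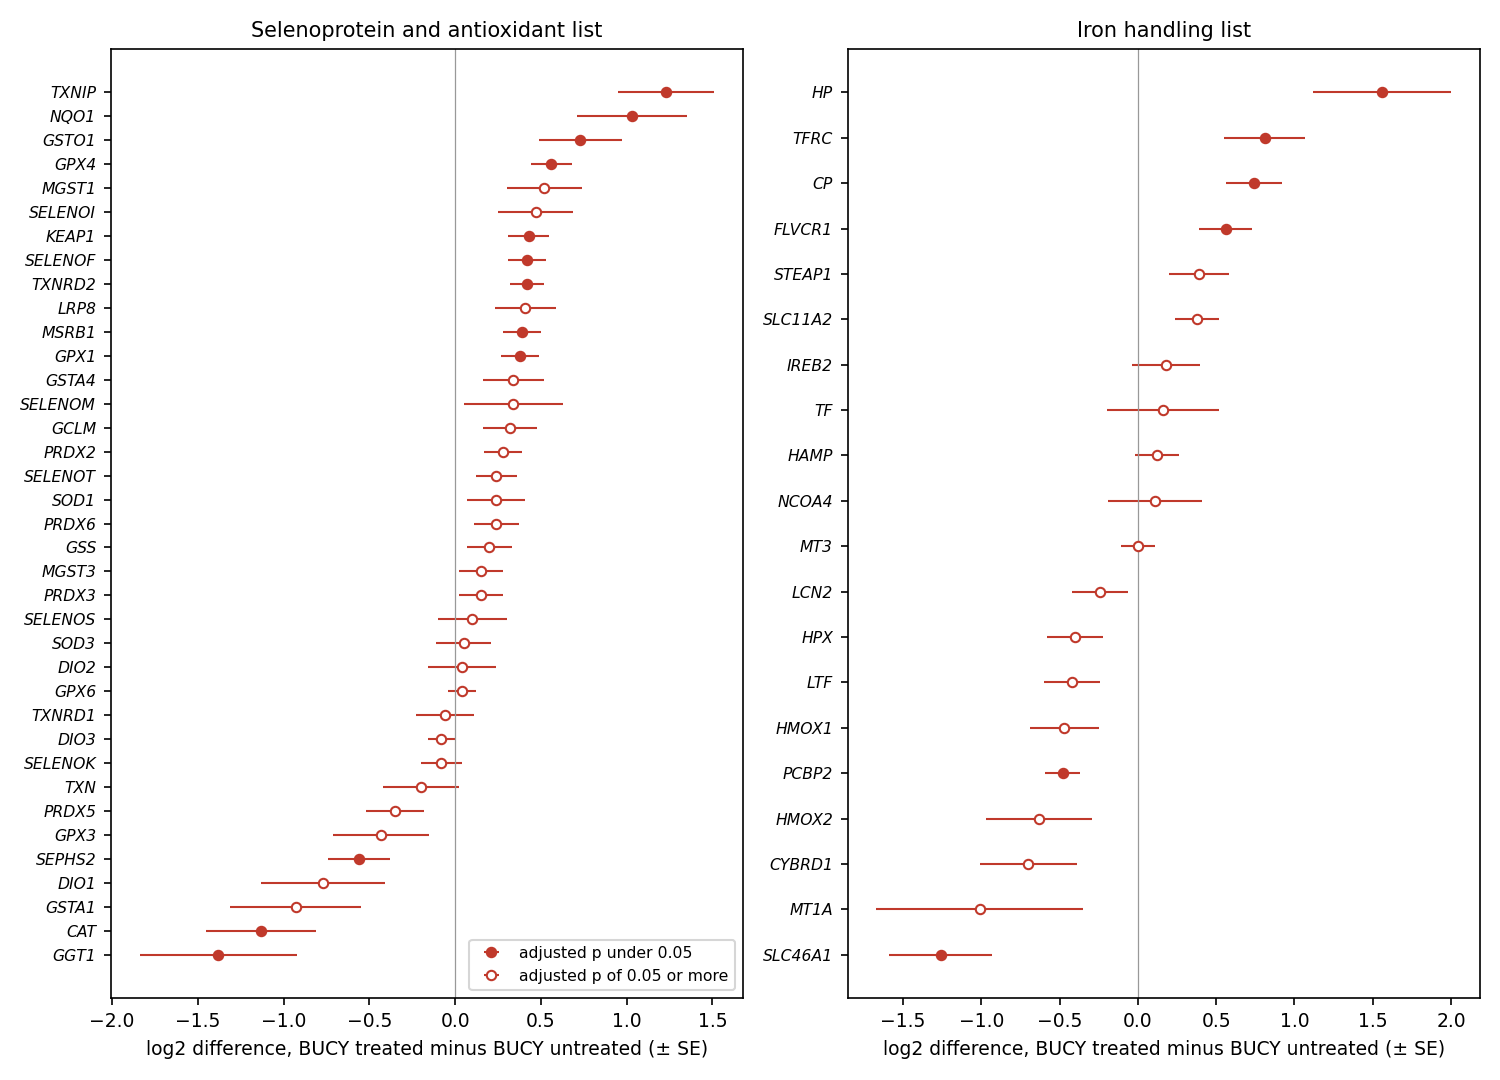
Log2 difference, BUCY treated minus BUCY untreated (horizontal axes, ± SE), of the 37 tested genes of the selenoprotein and antioxidant list (left) and 20 of the 21 of the iron list (right), filled where limma's adjusted p was under 0.05. On the left 9 are called higher and 3 lower, and on the right 4 higher and 2 lower; with median centring in place of loess the full lists had 0 higher and 5 lower, and 1 higher and 4 lower.

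Iron handling was followed in a list of 51 genes, of which 21 were tested beside FTH1 and FTL. After BUCY, limma called 5 higher and 2 lower and 14 did not pass, beside 17.3% of all genes called (8.23% higher and 9.05% lower). The median difference of the list was 0.11, against 0.00 over all genes. Within slides and within scan days, of 1 to 3 piglets per group, that median was -0.05 to 0.02. With median centring the split was 1 higher and 4 lower with a median of -0.28. Among genes of iron uptake and export, TFRC, the transferrin receptor, was -0.17, 1.68, 0.72, -0.03 and -0.16 in BUCY treated piglets 1 to 5, against -0.40, -0.49, -0.57, -0.19 and -0.40 in BUCY untreated piglets 1 to 5. All treated values were above the untreated ones, as for 3.22% of all genes tested. Piglets 2 and 3 were highest, and the difference was 0.81 (SE 0.26, limma adjusted p = 0.0329). It was 0.29 (adjusted p = 0.391) without them. The call was also lost without BUCY untreated piglet 1, 2, 3 or 5 (adjusted p of 0.0531 to 0.0686) or BUCY treated piglet 2 or 3 (0.0893 and 0.0894). The adjusted p was 0.00577 to 0.391 over all alternatives.

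SLC46A1, a folate and haem transporter of the proximal gut, averaged -0.77 ± 0.61 in BUCY treated and 0.49 ± 0.67 in BUCY untreated piglets (SD, n = 5 each; difference -1.26, SE 0.33, limma adjusted p = 0.0138). It was -0.97 (adjusted p = 0.135) without piglets 2 and 3, within 0.00451 to 0.135 over the alternatives. FLVCR1, which exports haem, averaged 0.35 ± 0.41 in BUCY treated and -0.21 ± 0.23 in BUCY untreated piglets (difference 0.56, limma adjusted p = 0.0236). Its call was lost without BUCY untreated piglet 1, 2 or 5 or BUCY treated piglet 2 or 4 (adjusted p of 0.0522 to 0.0718). The adjusted p was 0.00675 to 0.194 over all alternatives.

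Secreted and binding proteins of iron were also among the calls. HP, haptoglobin, which binds free haemoglobin, was 2.41, -0.40, 2.44, 0.75 and 1.23 in BUCY treated piglets 1 to 5, against -0.88, -0.88, -0.69, -0.20 and 1.26 in BUCY untreated piglets 1 to 5. BUCY treated piglet 2 lay within the untreated range, and BUCY untreated piglet 5 was above 3 treated piglets (difference 1.56, SE 0.44, limma adjusted p = 0.0186). Its call was lost without BUCY untreated piglet 2 (adjusted p = 0.0531) or BUCY treated piglet 3 (0.0664), and it was the only gene of the list called without piglets 2 and 3 (0.0161, within 0.00329 to 0.139 over the alternatives). PCBP2, a chaperone that hands iron to ferritin, was -0.02, -0.17, -0.17, -0.20 and 0.01 in BUCY treated piglets 1 to 5, against 0.37, 0.35, 0.61, 0.36 and 0.18 in BUCY untreated piglets 1 to 5. It was lower with no overlap, as for 3.34% of all genes tested (difference -0.48, SE 0.11, limma adjusted p = 0.00555), in the direction of FTH1 and FTL. Its adjusted p was 0.0582 without piglets 2 and 3 and 0.00351 to 0.0696 over the alternatives. The count of 7 was 4 without BUCY untreated piglet 1 or BUCY treated piglet 3, and 1 without BUCY treated piglets 2 and 3 or with only the BUCY groups in the fit.

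CP, ceruloplasmin, a copper enzyme that oxidises iron for loading onto transferrin, was the only gene of the list called in both drug comparisons. After DOX its lowest, median and highest values were 0.40, 0.58 and 0.97 in DOX treated piglets, against -0.67, -0.36 and 0.20 in DOX untreated piglets. The groups did not overlap, and 1.22% of all genes tested lay wholly higher in DOX treated piglets. The CP difference was 0.92 (SE 0.16, limma adjusted p = 0.00517, and 0.00162 to 0.0181 over the alternatives). After BUCY it was 0.01, 0.19, 0.16, -0.44 and 0.72 in BUCY treated piglets 1 to 5, against -0.67, -0.95, -0.39, -0.50 and -0.53 in BUCY untreated piglets 1 to 5, with an overlap made by BUCY treated piglet 4. The difference was 0.74 (SE 0.18, limma adjusted p = 0.00811), and its adjusted p was 0.0664 without piglets 2 and 3 and 0.00124 to 0.0678 over the alternatives. The CP probe was above background in 3 of 5 BUCY untreated piglets. The DOX comparison thus called 1 of 21 iron genes, beside 0.848% of all genes, and 4 had an unadjusted p under 0.05, as did 13.8% of all genes.

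The difference between the drugs, BUCY minus DOX, was tested for the list genes in the same fit. It was called for 2 of the 37 antioxidant genes and 3 of the 21 iron genes, beside 5.88% of all genes (3.14% higher and 2.73% lower). It was 0.60 for TXNRD2 (SE 0.13, limma adjusted p = 0.00876), with a DOX mean of -0.11 in treated and 0.06 in untreated piglets. It was -1.47 for CAT (SE 0.43, limma adjusted p = 0.047), whose call was lost in 17 of the 22 fits that each left out 1 array. For SLC46A1 it was -1.69 (SE 0.45, limma adjusted p = 0.0289), with 7 of 22 such fits losing the call. LTF, lactoferrin, an iron-binding protein of secretions and neutrophils, had -0.90 (SE 0.24, limma adjusted p = 0.03), and SLC11A2, the importer of ferrous iron at the brush border, 0.70 (SE 0.19, limma adjusted p = 0.0347), with 5 and 9 of 22 such fits losing the call. Without BUCY treated piglets 2 and 3, TXNRD2 kept its call (adjusted p = 0.0364), and CAT, SLC46A1, LTF and SLC11A2 did not (0.129, 0.0985, 0.0657 and 0.0677). With median centring none of the 5 passed, with adjusted p of 0.0694 to 0.597.

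The 4 genes themselves differed between the drug effects by 2.09 (SE 0.60) for GPX2, -1.42 (SE 0.37) for FTH1 and -0.46 (SE 0.23) for FTL. Between untreated piglets of the BUCY and DOX experiments, limma called 4 of the 37 selenoprotein and antioxidant genes higher and 13 lower (median -0.17), and 7 of the 21 iron genes higher and 3 lower (median 0.30), beside 25.2% of all genes. CAT had the smallest p of these, at 0.93 ± 0.28 in BUCY untreated (SD, n = 5) and -1.53 ± 0.11 in DOX untreated piglets (SD, n = 6; difference 2.46, limma adjusted p = 4.89e-06). GPX3, the secreted peroxidase (difference 1.76, limma adjusted p = 4.52e-05), and HMOX1, which breaks down haem (1.28, limma adjusted p = 0.000104), were named after their values were seen, and both were higher in BUCY untreated piglets. With median centring the counts were 2 higher and 8 lower for the antioxidant list, and 3 higher and 3 lower for the iron list.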

How the data were processed

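Each piglet's RNA was hybridised to 1 two-colour Agilent array (22 arrays, 7 slides, 3 scan days). The deposited scanner files hold raw median spot and background intensity, a log10 ratio of processed red over green signal, and other columns of 0 or 1 quality flags, made with Agilent Feature Extraction 10.7.3.1 per the file headers. The authors' value table was deposited as log2 ratios; per the submitters' processing notes Agilent Feature Extraction and limma were used, and no source used here gives the steps. Set against normexp-, loess- and quantile-normalised signals, its arrays had r of 0.9947 to 0.9998, slopes of 0.9927 to 1.006 and medians of 0.00146 to 0.018.

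Median signals (no mean spot signal is held) were corrected by normexp (offset 50) and normalised within arrays by loess with limma 3.58.1 in R 4.3.3, with control spots at weight 0. Outlier spots, 3 to 52 per array, were dropped and 0 spots were saturated. RefSeq genes of Sscrofa11.1 named 6700 probes (15.4%, 3029 symbols) through their accessions; coordinates are not printed because the files name no genome build. Each gene was taken by its brightest probe and needed Cy5 above background on 5 arrays or more. One limma model of 4 group means (lmFit, eBayes, two-sided, 18 residual and 3.38 prior degrees of freedom) gave Benjamini-Hochberg adjusted p-values over the whole table, with 0.05 as the limit. The fit was also run on simulated data in which each gene had the same SD in all groups. That run was therefore no test of the fit for groups of unlike spread. SE beside the 4 genes come from the groups' own SDs. Replicates are piglets, and replicate numbers follow array order and pair none. Figures were drawn with matplotlib 3.10.9.

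The 4 genes, both lists and the alternatives were chosen with earlier results of these data known. Named are the 4 genes, up to 8 list genes past the threshold per list for DOX, BUCY and their difference by smallest p, and the 3 nearest genes of each of the 4; 1 such iron gene, counted with its list, and 1 such nearest gene are not reported here. Others are said to be chosen after their values were seen. Alternatives changed the ratio, the scaling within and between arrays, the filter, the probe, the slide and scan day, and the arrays used; those for marker lists and for genes named afterwards were chosen after seeing the data.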

Additional observations from a re-analysis of the deposited data

Results flagged for a closer look

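Of 80 sets of values of 1 gene in 1 group, 4 held a piglet far from the others, and chance alone marks about 1 in 20. SELENOP in BUCY untreated piglet 3 was 1.78, against 1.11 to 1.29 in the other 4. CAT in DOX untreated piglet 1 was -1.32, against -1.61 to -1.51 in the other 5, and TFRC in the same piglet was 0.53, against -0.16 to 0.04. LTF in BUCY treated piglet 2 was -0.74, against -0.07 to 0.17 in the other 4.

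For 5 list genes the BUCY effect differed from the DOX effect by limma's test of the difference: 0.60 for TXNRD2, -1.47 for CAT, -1.69 for SLC46A1, -0.90 for LTF and 0.70 for SLC11A2. These were 2 of the 37 antioxidant genes and 3 of the 21 iron genes, beside 5.88% of all genes. Without BUCY treated piglets 2 and 3 only TXNRD2 of the 5 kept its call, and with median centring none did. For the brightest SELENOP probe the difference was -3.31, and this difference was not tested. Every BUCY treated piglet lay below the mean of its untreated group on this probe, and every DOX treated piglet above its own. For the probe ranked 8 by brightness, 4 of 6 DOX treated piglets lay above the DOX untreated mean. With median centring of the brightest probe, DOX treated piglet 5 (-1.19) lay below the DOX untreated mean (-1.03).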

How the results depend on the processing

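The 4 genes kept their direction in the BUCY comparison, in its difference from DOX and between untreated groups under every alternative and with each array left out. Leaving out single arrays gave BUCY differences of 1.71 to 2.45 for GPX2, -3.31 to -2.24 for SELENOP, -1.52 to -1.18 for FTH1 and -0.78 to -0.57 for FTL. For DOX these were -0.15 to 0.10, 0.36 to 0.65, 0.04 to 0.23 and -0.32 to -0.15. For BUCY minus DOX they were 1.71 to 2.46, -3.87 to -2.79, -1.65 to -1.31 and -0.55 to -0.34, and between untreated groups -1.51 to -1.33, 2.85 to 3.06, 1.25 to 1.51 and 0.65 to 0.84. The scanner software's ratio gave GPX2 3.11 for BUCY, 3.12 for BUCY minus DOX and -2.30 between untreated groups. Without BUCY treated piglets 2 and 3 GPX2 was 1.27 and 1.28, and SELENOP -1.52 and -2.07, for BUCY and BUCY minus DOX. With median centring FTH1 was -1.99 and -1.96, and FTL -1.39 and -1.0.

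Counts of called genes moved more, and the causes were not tested. With single arrays left out, the 210 genes called for DOX became 119 to 359, the 4277 for BUCY 2280 to 6290, the 1455 for BUCY minus DOX 938 to 2392 and the 6239 between untreated groups 5245 to 6751. The antioxidant list then gave 0 to 0, 3 to 13, 1 to 4 and 12 to 18 calls in these 4 comparisons, in place of 0, 12, 2 and 17. The iron list gave 1 to 1, 4 to 7, 0 to 4 and 5 to 10, in place of 1, 7, 3 and 10, with 5 between untreated groups without DOX untreated piglet 1 and 6 without DOX untreated piglet 3 or 4 or BUCY untreated piglet 4. Median centring gave 89 genes for DOX, 104 for BUCY minus DOX and 3850 between untreated groups, with 5, 0 and 10 antioxidant genes for BUCY, BUCY minus DOX and untreated groups, and 0 and 6 iron genes for BUCY minus DOX and untreated groups. It lowered the share of calls that were higher to 30.3% for DOX, 36.5% for BUCY minus DOX and 37.7% between untreated groups, in place of 43.3%, 53.5% and 51.7%. It also turned TXNRD2 (-0.06), SELENOF (-0.17), MSRB1 (-0.19), KEAP1 (-0.03) and GPX1 (-0.22) for BUCY.

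Without BUCY treated piglets 2 and 3 there were 493 calls for DOX, 1125 for BUCY and 732 for BUCY minus DOX, with 1, 4 and 4 antioxidant genes, and 1 and 0 iron genes for BUCY and BUCY minus DOX. With only the groups compared there were 745 for DOX and 897 for BUCY, with 1 and 1 antioxidant and 2 and 1 iron genes. Slide as a fixed block, which takes out BUCY treated piglet 2 as the only array of its slide, gave 349 for DOX and 2298 for BUCY, 6 and 1 antioxidant genes for BUCY and BUCY minus DOX, and 1 and 6 iron genes for BUCY minus DOX and untreated groups; as a random block it gave 355 for DOX. Leaving out the arrays with a suffix in their title gave 1482 for BUCY and 330 for BUCY minus DOX, with 3 antioxidant genes and 1 iron gene for BUCY and 0 iron genes for BUCY minus DOX. Scan day as a block or no filter gave 1 antioxidant gene for BUCY minus DOX, the scanner software's ratio 1 iron gene there, and the requirement of Cy5 above background on all arrays 4 iron genes for BUCY and 0 for DOX. Aquantile scaling leaves log ratios as they are by construction. Of 691 values of named list genes under another setting, 547 kept direction and side of the threshold, 144 did not and 5 of these turned. No paired analysis was possible because the labels give the groups no shared replicate numbers.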
